A study of Mus musculus with 8 samples.

Results

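Regulatory T cells (Treg) were compared with naive CD4+ T cells, both sorted from one line of mice. The comparison used 4 of the 8 arrays of the series, 2 titled Treg and 2 titled naive, taken by their titles. The other 4 arrays hold CD44lo and CD44hi CD4+ T cells, 2 of each. They serve to estimate the spread, to choose the genes tested and the probe of each, and to place the genes that set Treg apart. All 8 samples are CD4+ T cells that were sorted from spleen and lymph nodes, pooled. The mice were C57BL/6 males aged 15 weeks, and the series title names the line as Ox40-cre/ROSA-YFP. In such a line Cre made under control of the Ox40 gene (Tnfrsf4) removes a block to YFP at the ROSA locus, so that a cell that has once expressed Ox40 stays YFP-positive with its descendants. The labels do not give the gates of the 4 sorts or say which of them used YFP. They number the samples of each group 1 and 2, and whether the numbers stand for different mice is not stated, so the p-values measure only the spread between these arrays, which may be technical.

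Treg are the CD4+ T cells that hold back other immune responses. Their program is set by the transcription factor Foxp3, they take up IL-2 through a high-affinity receptor that includes CD25 (Il2ra), and they act through inhibitory receptors, cytokines, adenosine and granzymes. Naive CD4+ T cells have not met their antigen; they recirculate through lymph nodes by way of CCR7 and are kept quiescent by factors such as Klf2 and Foxp1. In bulk RNA of sorted cells, fewer cells of a type and less RNA per cell cannot be told apart.

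Each gene was measured by 60-base probes, one of which stands for it in the values below. A level is the log2 of the probe's processed signal over the 75th percentile of that array, so 0 is a bright probe and a value near -8 lies at the background. Levels are compared between arrays for one probe and never between probes. The sequences of 8 probes follow, of 4 genes that rose in Treg by over 8-fold and 4 that fell by over 8-fold and that are described further on, with their positions in the build mm7 that the files give.
Foxp3, chrX:6028182-6028241, + strand: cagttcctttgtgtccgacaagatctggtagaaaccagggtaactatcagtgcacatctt
Socs2, chr10:94973417-94973476, - strand: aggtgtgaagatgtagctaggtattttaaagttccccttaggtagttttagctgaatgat
Khdc1a, chr1:21546736-21546795, + strand: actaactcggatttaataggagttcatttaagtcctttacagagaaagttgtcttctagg
Gbp2b, chr3:142511872-142511931, + strand: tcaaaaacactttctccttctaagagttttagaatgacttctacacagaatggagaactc
Pdlim4, chr11:54011782-54011841, - strand: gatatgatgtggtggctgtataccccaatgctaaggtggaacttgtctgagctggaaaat
Ggt5, chr10:75270562-75270621, + strand: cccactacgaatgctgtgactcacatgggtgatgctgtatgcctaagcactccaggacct
Klrd1, chr6:129621685-129621744, + strand: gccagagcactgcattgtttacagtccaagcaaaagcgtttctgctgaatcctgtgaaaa
Pde3b, chr7:110452250-110452309, + strand: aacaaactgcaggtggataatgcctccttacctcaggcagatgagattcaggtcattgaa
The files name the probe of Khdc1a Ndg1, that of Gbp2b Gbp1 and that of Ggt5 Ggtla1, which are older symbols of these genes.

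The sorted cells carried the markers of their labels. All 5 Treg markers (Foxp3, Il2ra, Ctla4, Ikzf2, Tnfrsf18) were higher in Treg, and all 5 markers of naive T cells, among them Ccr7, Lef1, Tcf7 and Il7r, were lower. Of 7 measured markers of CD4+ T cells as a whole, none passed the test at an adjusted p of 0.05, and 3 of the 7 had an unadjusted p below it in the limma fit. Cd4 itself lay at 1.15 and -0.41 on the naive arrays and at 0.18 and 0.08 on the Treg arrays, so the Treg values fell between the naive ones. The 75th percentile of the signal was lower on the naive arrays, 639.3 and 990.7, than on the other 6, which ranged from 1044.6 to 1336.8. The naive arrays also differed more from each other than the Treg arrays did, with an SD of the log2 difference of 0.63 against 0.401. Of all probes, 59.23% and 61.97% were well above background on the naive arrays and 62.52% to 67.93% on the Treg arrays.

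Of 17996 genes tested, 3941 (21.9%) passed an adjusted p of 0.05 in the limma fit, 2081 (11.6%) higher and 1860 (10.3%) lower in Treg. Among the genes higher in Treg the median log2 difference was 2.14, and 646 differed by over 8-fold. Among those lower it was -0.95, and 83 differed by over 8-fold. Of the 2081 genes higher in Treg, 622 were not well above background on either naive array, whereas 50 of the 1860 lower genes were not on either Treg array. Sizes of genes at background are not measured on that side, and among the 15279 genes well above background on all 8 arrays 1436 were higher and 2068 lower. The Treg and naive arrays did not overlap for any gene called, which was also so for 11436 (63.5%) of all genes tested. The median over all genes was -0.20, so a gene at 0 lay slightly above the middle of the table. The counts moved with single arrays, to 9200 without naive array 1, 2235 without Treg array 1 and 1788 without Treg array 2. With normexp background correction 32.4% of the called genes were higher in Treg, against 52.8% here.

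**Figure D1:**
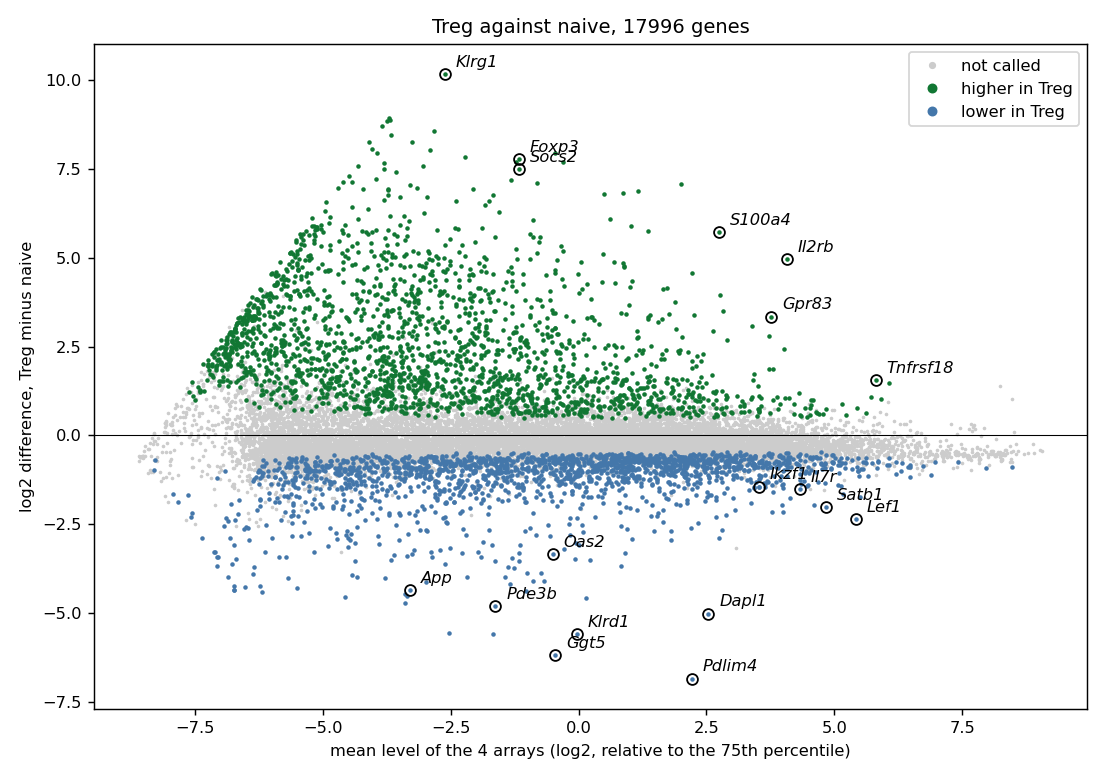
Log2 difference between Treg and naive (vertical axis) against the mean level of the 4 arrays (horizontal axis, log2 relative to each array's 75th percentile) for 17996 genes; green and blue points passed an adjusted p of 0.05 in limma and circles mark named genes. The green points reach 10.16 (Klrg1) and the blue ones -6.84 (Pdlim4); the straight upper left edge is formed by genes at background on the naive arrays.

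All 29 measured genes of a list of regulatory T cell genes were higher in Treg, with a median log2 difference of 5.77. The list was chosen with earlier results of these data known, so the count describes these genes and tests nothing. Of the 29, 5 were not well above background on either naive array. Over all genes 21.9% were called. Foxp3 lay at -5.41 and -4.68 on the naive arrays and at 2.77 and 2.68 on the Treg arrays. The difference was 7.77 ± 0.28 (SE, 2 arrays a group), 219-fold, with an adjusted p of 2.5e-05. The Treg arrays stood within 0.1 of each other, and the naive values stood far below both. Il2ra, the alpha chain that gives the IL-2 receptor its high affinity, rose from -5.08 and -4.74 to 2.30 and 2.21, which was 144-fold (7.17 ± 0.18, adjusted p = 1.0e-05). Ctla4, the inhibitory receptor that competes with Cd28 for its ligands, rose 66.1-fold (6.05 ± 0.22, adjusted p = 2.5e-05), from -3.60 and -4.22 to 2.21 and 2.05. Its competitor Cd28 lay at 1.77 and 2.05 in naive cells and at 1.69 and 1.50 in Treg, and did not pass the test (adjusted p = 0.244).

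Probes at background in naive cells give only a lower bound on the fold. It is set between the mean of the Treg arrays and, for the naive arrays, the lowest signal that counted as well above background or the probe's own signal where that was higher. The largest rise in the table was that of Klrg1, a lectin-like inhibitory receptor for cadherins. Its levels were -8.39 and -6.98 on the naive arrays, neither well above background, and 2.53 and 2.41 on the Treg arrays, at least 364-fold higher (adjusted p = 3.5e-05). Plagl1, a zinc finger transcription factor, was at least 119-fold higher. Il1r2, the decoy receptor for IL-1, was at least 66.2-fold higher with its Treg arrays at -0.52 and 0.56, the widest pair in this list among the genes named here. Itgae, the CD103 chain that binds E-cadherin on epithelium, was well above background on all 4 arrays and rose 247-fold (7.95 ± 0.37, adjusted p = 4.9e-05), from -4.80 and -4.05 to 3.35 and 3.69.

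Further genes of the list were also measured in naive cells. Tnfrsf18 (GITR), a costimulatory TNF receptor, lay in naive cells at 4.71 and 5.34 and reached 6.62 and 6.55 in Treg, 2.95-fold higher (adjusted p = 0.00389). Tnfrsf4 (Ox40), the gene whose control elements drive Cre in this line, rose 11.3-fold (3.50 ± 0.30, adjusted p = 4.4e-04), from 0.69 and 1.45 to 4.63 and 4.52. Gpr83, an orphan receptor known from Treg, rose 10.1-fold from 2.05 and 2.15 to 5.57 and 5.30 (adjusted p = 5.0e-05). The smallest rise of the list was that of Ecm1, a secreted matrix protein, at 2.08-fold (adjusted p = 0.00603). Set against the other groups, Gpr83 was also higher in Treg than in CD44hi cells (by 4.21, adjusted p = 2.1e-04) and than in CD44lo cells (by 2.12, adjusted p = 0.00176). Nrp1 (neuropilin-1), well above background on 1 of the 2 naive arrays, rose 97.2-fold over naive but passed the test neither against CD44hi cells (0.43, adjusted p = 0.512) nor against CD44lo cells (1.34, adjusted p = 0.0597).

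**Figure D2:**
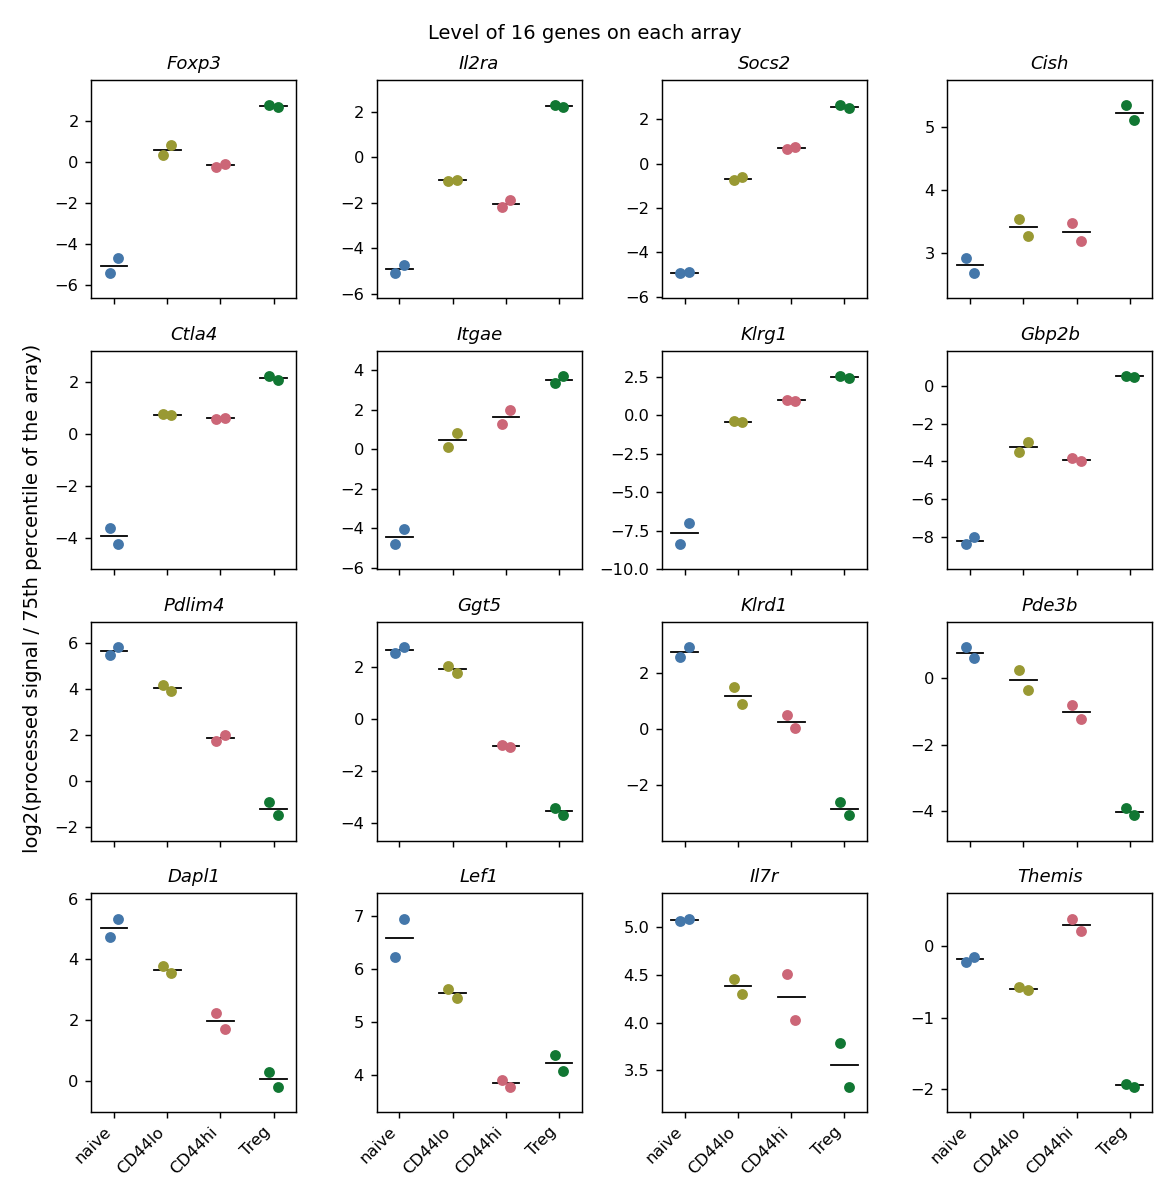
Level of each named gene on each array (vertical axis, log2 of the processed signal over the array's 75th percentile) in naive, CD44lo, CD44hi and Treg samples; points are arrays and bars are the means of 2. In each panel of the 2 upper rows both Treg points lie above both naive points, and in each panel of the 2 lower rows they lie below.

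The Ikaros family and the transcription factors around Foxp3 moved in both directions. Of 31 measured factors, 10 were higher in Treg, 4 were lower and 17 did not pass the test. That is 45.2% called against 21.9% of all genes, with a median of 0.59 against -0.20. Ikzf2 (Helios) rose 111-fold, from -3.47 and -2.33 to 3.90 and 3.88 (adjusted p = 9.9e-05). Ikzf4 (Eos), a Foxp3 partner in repression, rose 4-fold (2.00 ± 0.14, adjusted p = 1.8e-04) and Ikzf3 (Aiolos) rose 2.31-fold (adjusted p = 0.00396). Ikzf1 (Ikaros), the founding member of the family, went the other way, from 4.26 and 4.22 to 2.93 and 2.68, 2.72-fold lower (-1.44 ± 0.23, adjusted p = 0.00598). Maf rose 17.8-fold (4.15 ± 0.26), and Irf4 and Prdm1 (Blimp-1), both tied to effector Treg, rose 7.59-fold and 3.78-fold. Irf8 rose 5.03-fold. Bach2, which restrains effector differentiation, fell 2.49-fold (adjusted p = 0.00424), and Runx3 fell 1.74-fold (adjusted p = 0.0208). The fourth fall, that of Foxp1 by 1.72-fold (adjusted p = 0.0441), was lost in 13 of 18 alternative analyses. Against CD44hi cells, Bach2 was higher in Treg by 1.62 (adjusted p = 0.00445). The factors called lower numbered 7 without naive array 1, 2 without Treg array 1 or either CD44lo array, and 1 without Treg array 2.

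Genes of the IL-2 pathway changed at the receptor and at its inhibitors. IL-2 binds a receptor of the chains Il2ra, Il2rb and Il2rg, which signals through Jak1, Jak3 and Stat5, and Stat5 induces the feedback inhibitors Cish and the Socs proteins. Of 17 measured genes, 8 were higher in Treg and 2 lower, 58.8% called against 21.9% of all genes, with a median of 0.53. Il2rb rose 31.1-fold, from 1.32 and 1.86 to 6.61 and 6.49 (4.96 ± 0.22, adjusted p = 4.0e-05). The shared chain Il2rg lay at 3.25 and 2.21 in naive cells and at 2.97 and 3.17 in Treg, with overlapping arrays (adjusted p = 0.458). Socs2 rose 179-fold, from -4.93 and -4.90 to 2.65 and 2.50 (7.48 ± 0.14, adjusted p = 6.3e-06), and was also higher than in CD44hi cells by 1.85 and than in CD44lo cells by 3.25. Cish rose 5.35-fold, from 2.93 and 2.69 to 5.35 and 5.11 (adjusted p = 3.2e-04). Socs1 rose 1.71-fold (adjusted p = 0.0382), a call lost in 9 of 18 alternatives.

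Receptors that share the gamma chain differed among themselves. Il7r, the IL-7 receptor that keeps naive cells alive and is low on Treg, fell from 5.06 and 5.09 to 3.79 and 3.33, 2.86-fold (-1.52 ± 0.23, adjusted p = 0.00464). Il9r, not well above background on either naive array, was at least 2.22-fold higher in Treg and was lower than in CD44hi cells by 2.64 on the log2 scale (adjusted p = 0.00461). The other fall of the list was that of Jak1, by 1.56-fold (adjusted p = 0.0416), lost in 12 of 18 alternatives. Il2 itself was not well above background on either naive array and lay at -5.65 and -5.34 in Treg, at least 1.45-fold higher (adjusted p = 0.0497). Its call was lost in 15 of the 17 alternatives that tested it, and its second probe moved the other way. Il2 was lower in Treg than in CD44hi cells by 3.73 on the log2 scale (adjusted p = 0.00106). Leaving out any array but naive array 1 left 1 of the 2 falls called.

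The start of Cish is shown because its window held a pair of matches to the letters TTCNNNGAA, which STAT factors bind and which read alike on both strands. The stretch runs from 100 bases before to 30 bases from the RefSeq start of transcription, on the + strand in GRCm38.p6 at chr9:107296559-107296688, with the matches in capitals.
Cish: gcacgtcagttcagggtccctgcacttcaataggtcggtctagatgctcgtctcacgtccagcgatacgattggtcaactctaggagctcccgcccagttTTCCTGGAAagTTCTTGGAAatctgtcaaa
The RefSeq windows of 250 bases before to 50 after the start held 0 matches for Il2ra, Socs1 and Ctla4, and 0 and 1 for the 2 starts of Foxp3. No window was available for Socs2 or Il2rb. Over the table as a whole these letters stood in 8.47% of 27025 windows. Of the windows of genes higher in Treg 7.06% held them, of those lower 6.38%, and of all those tested 7.11%. A forkhead motif (GTAAACA, either strand) stood in 2.6% of the windows of higher genes, 2.85% of those of lower genes and 2.63% of those tested. The AP-1 letters TGAGTCA, which read almost alike on both strands and were searched on both, stood in 5.13%, 3.45% and 3.6%. These shares describe the letters in these windows and were not tested.

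Genes through which Treg suppress were mostly higher. Of 16 measured, 12 rose and none fell, 75% called against 21.9% of all genes. The median was 5.23, or 4.74 with genes at background set to their bounds. Entpd1 (CD39), which degrades extracellular ATP, was at background in naive cells and at -0.11 and 0.01 in Treg, at least 63.3-fold higher (adjusted p = 2.0e-05). Nt5e (CD73), which completes the path to adenosine, was well above background in both groups and rose 6.86-fold (2.78 ± 0.21, adjusted p = 2.8e-04). Gzmb, a granzyme, was at least 109-fold higher and Il10 at least 26.6-fold higher. Ebi3, a chain of IL-35 and IL-27, rose 138-fold. Itgb8, an integrin chain that releases active TGF-beta, was at least 45.6-fold higher, whereas Tgfb1 lay at 1.41 and 1.01 in naive cells and at 1.49 and 1.45 in Treg (adjusted p = 0.292). Fgl2, a secreted suppressive factor, rose 54.5-fold, from -5.82 and -5.49 to 0.16 and 0.06. Penk, the enkephalin precursor, rose 117-fold, and Areg, an epidermal growth factor family ligand of tissue repair, was at least 7.35-fold higher. Lag3, a receptor for class II, rose 26.9-fold.

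These effectors differed in how far the other groups shared them. Fgl2 was higher in Treg than in CD44hi cells by 1.31 (adjusted p = 0.00588) and than in CD44lo cells by 1.46 (adjusted p = 0.00726). Il10 differed from CD44hi cells by -0.05 (adjusted p = 0.965) and Lag3 by -0.63 (adjusted p = 0.291), neither of which passed the test. Entpd1 passed against CD44lo cells (1.81, adjusted p = 0.0102) but not against CD44hi cells (1.01, adjusted p = 0.0516).

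Among TNF receptors and their ligands, 10 of 22 were higher in Treg and 4 were lower, 63.6% called against 21.9% of all genes. Tnfrsf9 (4-1BB) rose 9.49-fold from -1.62 and -1.04 to 1.91 and 1.93 (adjusted p = 3.7e-04). Tnfrsf1b (TNFR2), through which TNF expands Treg, rose 5.68-fold, and Tnfrsf8 (CD30) was at least 3.42-fold higher. Of the ligands, Tnfsf14 (LIGHT) rose 10.2-fold and Tnfsf11 (RANKL) 7.31-fold. Cd40lg, the helper signal to B cells and dendritic cells, fell from -2.24 and -2.58 to -4.56 and -4.65, 4.58-fold (-2.19 ± 0.17, adjusted p = 2.7e-04). It was also lower in Treg than in CD44hi cells by 2.54 on the log2 scale (adjusted p = 6.9e-04) and than in CD44lo cells by 2.03 (adjusted p = 0.00238). Leaving out either Treg array lowered the number of members called higher from 10 to 6, and the 4 called lower became 2 without Treg array 1 and 1 without Treg array 2.

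Of 22 costimulatory and inhibitory receptors and their ligands, 12 were higher and 1 was lower, 59.1% called against 21.9% of all genes. Pdcd1 (PD-1) rose 9.68-fold, from -0.50 and -0.05 to 3.03 and 2.96 (3.27 ± 0.33, adjusted p = 8.2e-04), and its ligand Pdcd1lg2 (PD-L2) rose 22.6-fold. Cd86 rose 5.11-fold and was higher than in the other groups, by 1.57 against CD44hi cells (adjusted p = 0.00343) and by 1.71 against CD44lo cells (adjusted p = 0.00479). Cd80, the other ligand of Cd28 and Ctla4, was at least 10.6-fold higher than in naive cells. Havcr2 (TIM-3) rose 15.9-fold. Cd7 was the 1 lower member, at 2.13-fold (adjusted p = 0.0426), and lost its call in 8 of 18 alternatives, among them each fit that left out a Treg, CD44lo or CD44hi array.

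Of 27 chemokine receptors and homing genes, 17 were higher in Treg and 4 were lower. This made 77.8% called, against 21.9% of all genes, with a median of 1.92. Ccr7, S1pr1 and Gpr183 were among the 4 that fell. Ccr7 fell from 5.00 and 5.39 to 3.98 and 3.60, 2.64-fold (adjusted p = 0.00472). S1pr1, by which cells leave lymph nodes, fell 2.34-fold, and Gpr183, an oxysterol receptor that positions lymphocytes in lymphoid organs, fell 1.86-fold (adjusted p = 0.0257). Ccr6, the receptor for Ccl20, rose 206-fold, from -4.46 and -3.85 to 3.51 and 3.56 (7.69 ± 0.30, adjusted p = 3.2e-05). Cxcr3 rose 67.5-fold, Cxcr5, the receptor for lymphoid follicles, rose 17.3-fold, Gpr15, a gut-homing receptor, was at least 31.9-fold higher, Ccr2 at least 76.6-fold and Ccr4 at least 29.7-fold. Cd44 rose 2.19-fold (adjusted p = 0.00666). Of the 4 falls 2 were called when any one Treg or CD44lo array was left out. Cxcr3 was lower in Treg than in CD44hi cells, by 1.95 on the log2 scale (adjusted p = 0.0206).

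Of 22 tested lineage factors and cytokines of helper T cells, 10 rose in Treg, 1 fell and 11 did not pass the test. The share called was 50%, against 21.9% of all genes, and 6 of the 22 lay below 0. Il1rl1 (ST2), the IL-33 receptor, rose 122-fold, from -5.73 and -5.32 to 1.37 and 1.44 (6.93 ± 0.22, adjusted p = 2.0e-05). Tbx21 (T-bet) rose 14.1-fold and its target Ifng 77.2-fold, from -5.24 and -4.14 to 1.44 and 1.71. Against CD44hi cells both were lower in Treg, Tbx21 by 2.86 on the log2 scale (adjusted p = 0.00646) and Ifng by 2.39 (adjusted p = 0.0259). Il1r1 was at least 10.7-fold higher than in naive cells and lower than in CD44hi cells by 2.90 on the log2 scale (adjusted p = 0.0315). Il17a, at background in naive cells and at -5.85 and -4.89 in Treg, was at least 1.58-fold higher (adjusted p = 0.0094), and its difference lay at -0.08 with normexp background correction. Gata3 lay at 2.76 and 3.37 in naive cells and at 3.74 and 3.71 in Treg, which did not pass the test (adjusted p = 0.0753). Eomes was the gene that fell, 1.6-fold (adjusted p = 0.0351). It was the 1 call among lower genes here, against 3 without naive array 1 and 0 when any one Treg or CD44lo array was left out.

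The naive program was lower in Treg. Of 27 measured genes of naive and quiescent T cells, 21 were lower, 1 was higher and 5 did not pass the test. With 81.5% called against 21.9% of all genes, the median was -1.40. Dapl1 fell from 4.74 and 5.35 to 0.27 and -0.20, 32.3-fold (-5.01 ± 0.29, adjusted p = 9.6e-05). Pde3b, a phosphodiesterase that degrades cyclic AMP, fell 27.9-fold, from 0.94 and 0.62 to -3.91 and -4.14 (-4.80 ± 0.26, adjusted p = 7.9e-05). Dntt, the terminal transferase of antigen receptor rearrangement, fell 11.4-fold, Igfbp4 9.99-fold and Ampd1, an AMP deaminase, 9.13-fold. Several transcription factors also fell. Lef1 fell from 6.23 and 6.95 to 4.39 and 4.09, 5.1-fold (-2.35 ± 0.26, adjusted p = 0.00113). Satb1, an organiser of chromatin, fell 4.04-fold, Tcf7 3.12-fold (adjusted p = 5.4e-04) and Klf2 2.16-fold (adjusted p = 0.0127). Ccr9, a receptor for homing to the small intestine, was the 1 higher member, at 3.65-fold (adjusted p = 0.00141). Bcl2, which keeps naive cells alive, lay at 4.40 and 4.23 in naive cells and at 4.08 and 3.67 in Treg (adjusted p = 0.215).

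Against the other groups the naive genes fell into different patterns. Dapl1, Pde3b and Tcf7 were also lower in Treg than in CD44hi cells, by 1.93, 3.00 and 1.04 on the log2 scale (adjusted p = 0.0107, 0.00159 and 0.00866). Igfbp4, Ampd1 and Satb1 were higher in Treg than in CD44hi cells, by 2.25, 2.41 and 1.17 (adjusted p = 0.00326, 0.0047 and 0.0128). Each of these 6 genes was lower in Treg than in CD44lo cells, with adjusted p-values of 0.00211, 0.00136, 0.00733, 0.00353, 0.0154 and 0.0162 in the order named.

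Some antigen receptor signalling genes were lower in Treg. Of 34 genes of the T cell receptor complex and its proximal signalling, 12 were lower, 1 was higher and 21 did not pass the test. The share called was 38.2%, against 21.9% of all genes. The median was -0.40, against -0.20 over all genes. It was -0.14 with quantile normalization, the authors' deposited values or the mean of a gene's probes. Themis, a signalling protein of thymic selection, fell from -0.22 and -0.16 to -1.92 and -1.96, 3.35-fold (-1.75 ± 0.14, adjusted p = 3.3e-04). It was also lower than in CD44hi cells (by 2.23 on the log2 scale, adjusted p = 5.3e-04) and than in CD44lo cells (by 1.34, adjusted p = 0.00518). Txk, a Tec family kinase, fell 2.73-fold (adjusted p = 9.8e-04). Lat, the adaptor that gathers the signalling complex, fell 2-fold (adjusted p = 0.032), a call lost in 9 of 18 alternatives. The 1 higher member was Ubash3b, a phosphatase that dampens receptor signals, at 1.54-fold (adjusted p = 0.0244), lost in 8 of 18 alternatives. Cd3e and the kinase Lck did not pass the test, with differences of -0.22 (adjusted p = 0.345) and -0.50 (adjusted p = 0.0595). The number of members called lower ranged with the arrays used, from 3 without Treg array 2 and 5 without Treg array 1 to 18 without naive array 1.

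Genes induced by the antigen receptor and phosphatases of MAP kinases changed in both directions. Of 24 measured, 5 rose and 3 fell, 33.3% called against 21.9% of all genes, with a median of -0.32. Dusp4, which dephosphorylates ERK, rose 48.1-fold from -3.48 and -3.60 to 1.83 and 2.26 (5.59 ± 0.29, adjusted p = 6.3e-05). Spry1, an inhibitor of the Ras pathway, rose 9.8-fold (adjusted p = 7.5e-05). Smaller rises were those of Egr2 (2.33-fold, adjusted p = 0.0125), Dusp1 (2.01-fold, adjusted p = 0.0264) and Nr4a2 (2.87-fold, adjusted p = 0.0474), the last lost in 12 of 18 alternatives. Fosl2 fell 3.7-fold, Dusp10 2.92-fold and Ier2 1.94-fold (adjusted p = 0.0012, 9.1e-04 and 0.0354). Cd69, the early activation marker, lay at 3.12 and 3.22 in naive cells and at 2.58 and 1.80 in Treg (adjusted p = 0.0912). When either Treg array was left out, 2 rises were called in place of 5, and without naive array 1 the falls numbered 7.

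Survival genes and NF-kappaB genes were called in differing shares. In the Bcl2 family and cell death genes 7 of 20 rose and 1 fell, 40% called against 21.9% of all genes. Pmaip1 (Noxa), a death-promoting BH3 protein, rose 8.13-fold, the protective Bcl2l1 (Bcl-xL) 3.52-fold and Bcl2a1b 2.96-fold. Bcl2a1b belongs to a family of near-identical genes whose signals the array may not separate. Birc5 (survivin), which also acts in mitosis, rose 18-fold. Cflar (c-FLIP) fell 1.72-fold (adjusted p = 0.0488), lost in 11 of 18 alternatives. Of 17 NF-kappaB genes 3 were called, 17.6% against 21.9% of all genes. Nfkb2 rose 1.95-fold (adjusted p = 0.0121), Nfkb1 rose 1.51-fold (adjusted p = 0.0416) and the kinase Map3k14 (NIK) fell 1.93-fold (adjusted p = 0.00421). The count of NF-kappaB genes called higher was 2 here, 8 with quantile normalization or the authors' deposited values, 4 without naive array 2, 1 without any one CD44lo or CD44hi array and 0 when either Treg array was left out.

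Cell cycle genes were higher in Treg. Of 27 genes of mitosis, 25 rose and none fell, 92.6% called against 21.9% of all genes. The median was 4.15, or 3.84 with genes at background set to their bounds. Mki67, the proliferation marker, rose 28.6-fold from -1.97 and -1.11 to 2.98 and 3.61 (4.84 ± 0.41, adjusted p = 4.0e-04). Ccna2 (cyclin A) rose 37.6-fold, from -4.52 and -3.17 to 0.97 and 1.82. The kinases Aurkb and Bub1 were at background in naive cells and at least 27-fold and 21-fold higher in Treg. Cenpa, the centromere histone, was one of the 2 that did not pass the test (0.60, adjusted p = 0.0964). The median over the list was 3.46 on the slide with naive array 2 and Treg array 1, and 4.84 on the other.

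Replication genes rose in fewer members. Of 25, 11 were higher and none was lower, 44% called against 21.9% of all genes. The median was 0.81, which was 0.32 and 1.19 on the same slides. Tk1 (thymidine kinase) rose 35.2-fold, from -3.76 and -3.00 to 1.59 and 1.93, Cdc6, which loads the replicative helicase, 14.8-fold, and Rrm2 (ribonucleotide reductase) 10.5-fold. Without Treg array 2 the number called was 6. Against CD44lo cells Tk1, Mki67 and Ccna2 were higher in Treg, by 2.18, 2.42 and 3.32 (adjusted p = 0.0159, 0.0217 and 0.0194). Against CD44hi cells they differed by -0.31, -1.05 and -0.98 and did not pass the test (adjusted p = 0.684, 0.21 and 0.383).

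Medians of the interferon-inducible and 2 metabolic lists ran from -0.10 to 0.02, against -0.20 over all genes and -0.54 for ribosomal protein genes. Of 28 interferon-inducible genes 4 rose and 5 fell, 32.1% called against 21.9% of all genes, with a median of -0.05. The rises included 2 guanylate-binding proteins. Gbp2b lay at -8.40 and -8.02 in naive cells, at background, and at 0.52 and 0.49 in Treg, at least 92.9-fold higher (adjusted p = 1.0e-05). Gbp3 rose 10.6-fold from 0.40 and 0.70 to 3.96 and 3.94. Mx1 rose 3.26-fold and Oas1a 2.19-fold, whereas their relatives Oas2 and Oasl1 fell 10.1-fold and 2.31-fold (adjusted p = 7.2e-04 and 0.0167). Oas2 lay at 1.16 and 1.15 in naive cells and at -1.89 and -2.45 in Treg. The 5 falls became 3 without naive array 2, 2 without Treg array 1 and 1 without Treg array 2, and the 4 rises became 7 without naive array 1. Among 20 genes of glycolysis and glucose uptake, Hk2 (hexokinase) rose 15.6-fold, the lactate transporter Slc16a3 3.65-fold and the glucose transporter Slc2a3 2.58-fold. No other of the 20 was called, which makes 15%, against 21.9% of all genes. Without naive array 1 there were 5 called lower among them. Of 25 genes of cholesterol and fatty acid synthesis, 0 passed the test in limma and 4 had an unadjusted p below 0.05. Without naive array 1 there were 6 called lower and 1 higher. Of 48 cytosolic ribosomal protein genes, 1 (Rps28, 1.84-fold lower, adjusted p = 0.0345) passed, a call lost in 8 of 18 alternatives. No member was called when any one Treg, CD44lo or CD44hi array was left out. All 48 lay below 0 with a median of -0.54, which was -0.09 with quantile normalization. Without naive array 1, 47 of the 48 were called lower.

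**Figure D3:**
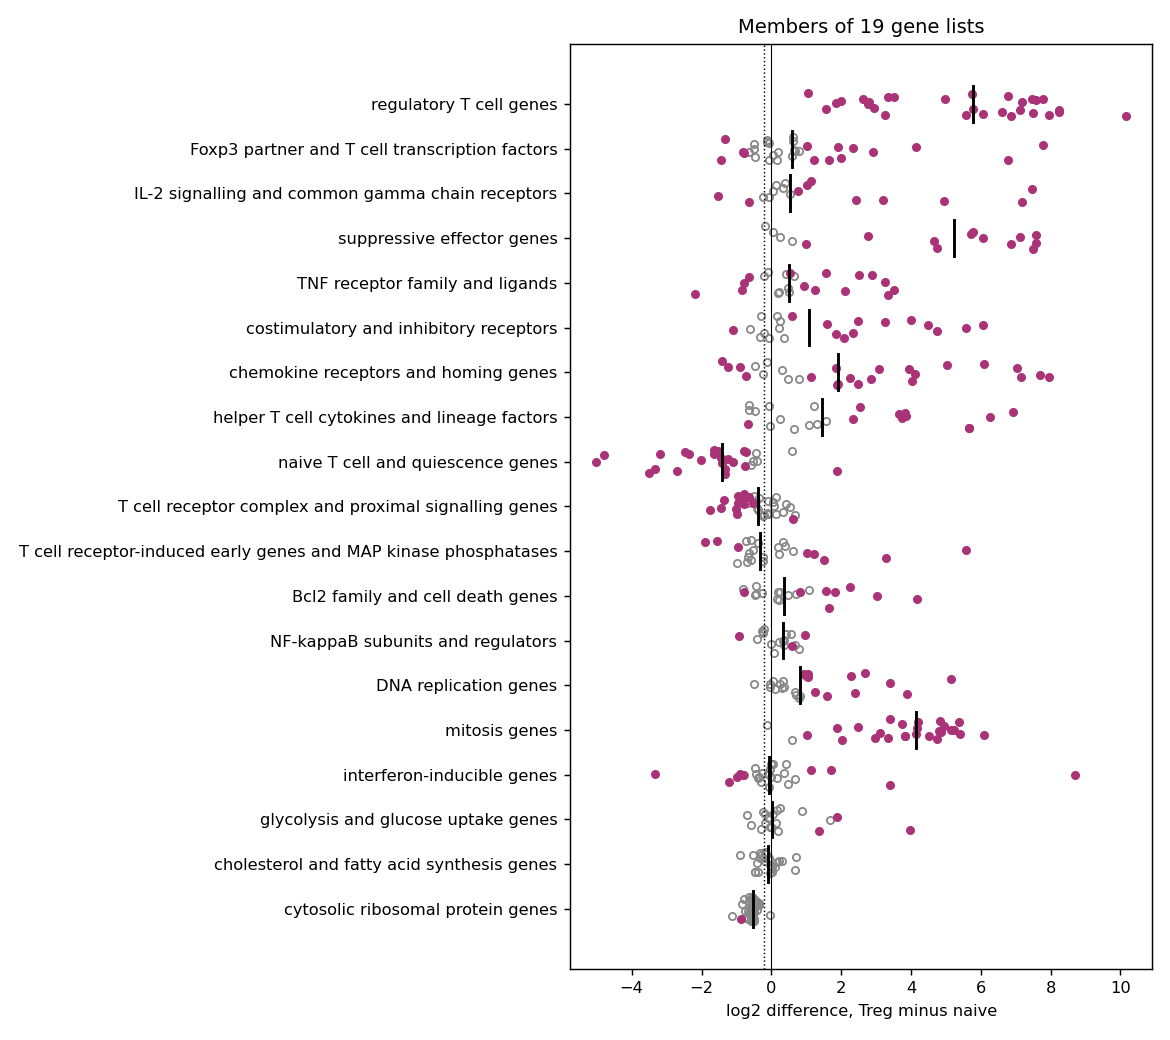
Log2 difference between Treg and naive (horizontal axis) for the measured members of each gene list (rows); filled points passed an adjusted p of 0.05 in limma, open points did not, bars are list medians and the dotted line is the median of all genes, -0.20. The list medians run from 5.77 for regulatory T cell genes to -1.40 for naive and quiescence genes. The lists were chosen with earlier results of these data known.

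Of the 15 largest rises, several were genes of none of the lists. Slc7a10, an amino acid transporter, was at least 111-fold higher, Myo3b, an unconventional myosin, at least 105-fold, and Matn2, a matrix protein, at least 180-fold. The carboxylesterases Ces2c and Ces2b, neighbouring paralogs on chromosome 8, were at least 96.5-fold and 141-fold higher by the probes that stand for them. Neither passed the test between Treg and the CD44hi or CD44lo cells: Ces2c differed by -0.65 from CD44hi cells (adjusted p = 0.106) and by 0.06 from CD44lo cells (adjusted p = 0.907), and Ces2b by -0.68 (adjusted p = 0.13) and -0.05 (adjusted p = 0.933). A second probe of each carboxylesterase rose less over naive cells, by 4.85 for Ces2c and by 1.81 for Ces2b on the log2 scale. That of Ces2b was well above background on all 4 arrays, and why the probes differ was not tested. Khdc1a was at least 65.3-fold higher, Fam160a1 at least 66.1-fold, and Osbpl3, an oxysterol-binding protein that was well above background on 1 of the 2 naive arrays, 227-fold.

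The list of the largest rises also held a probe whose name and position disagree. The files call it Dnahc12, now Dnah12, a dynein chain that RefSeq places on chromosome 14, but give its position on chromosome 1 in mm7. A second probe of that name overlaps it by 14 bases, in capitals below.
Dnahc12 probe, chr1:47021888-47021947, + strand: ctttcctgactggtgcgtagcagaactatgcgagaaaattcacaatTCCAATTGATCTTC
Dnahc12 overlapping probe, chr1:47021934-47021993, + strand: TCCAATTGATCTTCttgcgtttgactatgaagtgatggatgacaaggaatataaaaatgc
Dnahc12 probe on chromosome 14, chr14:24324269-24324328, + strand: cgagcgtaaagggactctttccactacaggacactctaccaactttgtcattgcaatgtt
The first lay at -8.33 and -7.91 in naive cells and at 0.69 and 0.79 in Treg, at least 109-fold higher, and the second differed by 7.73. The probe on chromosome 14 differed by -1.48, and the other 2 probes there, at -0.58 and -0.60, were not well above background on any of the 4 arrays. The rise was thus measured by the probes placed on chromosome 1, and which gene they read was not tested. Of 13761 tested genes with both positions known, 26 had their probe on another chromosome than RefSeq.

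The largest fall was that of Pdlim4, a PDZ and LIM domain protein of the actin cytoskeleton. It lay at 5.47 and 5.82 in naive cells and at -0.92 and -1.49 in Treg, 115-fold lower (-6.84 ± 0.25, adjusted p = 2.5e-05). Its neighbour on chromosome 11, P4ha2, a prolyl hydroxylase of collagen, fell 26.3-fold from -1.21 and -0.86 to -5.75 and -5.76, with 1 of the Treg arrays well above background. Ggt5, a gamma-glutamyl transferase that acts on glutathione conjugates and leukotrienes, fell 73.2-fold, from 2.53 and 2.74 to -3.41 and -3.71 (adjusted p = 1.5e-05). Klrd1 (CD94), the partner of the NKG2 receptors, fell 48.4-fold, from 2.60 and 2.93 to -2.59 and -3.08 (adjusted p = 6.9e-05). Lrrc75b fell 48.3-fold and the unnamed transcript A530021J07Rik 47.5-fold. Further large falls were those of Lypd6b (23.8-fold), Elovl7, a fatty acid elongase (23-fold), Arhgap29 (22.2-fold), Amz1 (20.7-fold) and App, the amyloid precursor protein (20.5-fold). Vwce and C130023O10Rik were at background on both Treg arrays and at least 20.4-fold and 4.11-fold lower.

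Among bright probes, with a mean level over the 8 arrays above the 90th percentile, the 5 largest rises were those of S100a4, Il2rb, P2rx7, Ahnak and Capg. S100a4, a calcium-binding protein of memory cells, rose 52.7-fold from -0.98 and 0.74 to 5.60 and 5.60 (adjusted p = 5.9e-04). P2rx7, the ATP-gated channel whose ligand Entpd1 removes, rose 8.48-fold, Ahnak 7.67-fold and the actin-capping Capg 6.91-fold. The largest falls among bright probes after Lef1 were those of Rasgrp2 (4.48-fold), Itgb3, the beta3 integrin chain (4.47-fold), Satb1 and Fam78a (3.86-fold). Rasgrp2 activates Rap1 and through it integrins.

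Treg were also compared with the CD44lo and CD44hi cells in the same fit. The comparisons share the Treg arrays, and 257 genes (1.43%) were higher and 149 (0.828%) lower in Treg in all 3. Against CD44hi cells 1474 genes (8.19%) passed the test, 747 (4.15%) higher and 727 (4.04%) lower in Treg. Against CD44lo cells 1001 (5.56%) passed, 665 (3.7%) higher and 336 (1.87%) lower. Foxp3 was higher than in CD44hi cells by 2.90 (adjusted p = 0.00215) and than in CD44lo cells by 2.13 (adjusted p = 0.0102). Its CD44lo arrays stood at 0.35 and 0.84 and its CD44hi arrays at -0.24 and -0.10, above both naive arrays and below both Treg arrays. Cyp26b1, which degrades retinoic acid, stood at -0.39 and -0.30 in Treg and at -7.32 and -7.44 in CD44hi cells, a difference of 7.03 (adjusted p = 2.1e-04). Its CD44lo arrays lay between, at -4.95 and -4.41. Khdc1a was higher in Treg by 4.96 and 3.04 than in CD44hi and CD44lo cells, Gbp2b by 4.42 and 3.74, and Magi1, a scaffold protein, by 2.84 and 2.22, with each difference past the test.

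Most of the largest falls also passed the test against both of these groups. Lrrc75b was lower in Treg than in CD44hi cells by 4.63 and than in CD44lo cells by 4.51 on the log2 scale (adjusted p = 2.1e-04 and 2.3e-04). App was lower by 3.70 and 3.67 (adjusted p = 9.4e-04 and 0.00176). Klrd1 was lower by 3.11 and 4.03, Pde3b by 3.00 and 3.97, and Pdlim4 by 3.07 and 5.25. Of the large falls, Amz1 did not pass the test against CD44hi cells (0.37, adjusted p = 0.273), nor did Arhgap29 (-0.69, adjusted p = 0.205), while both were lower than in CD44lo cells.

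**Figure D4:**
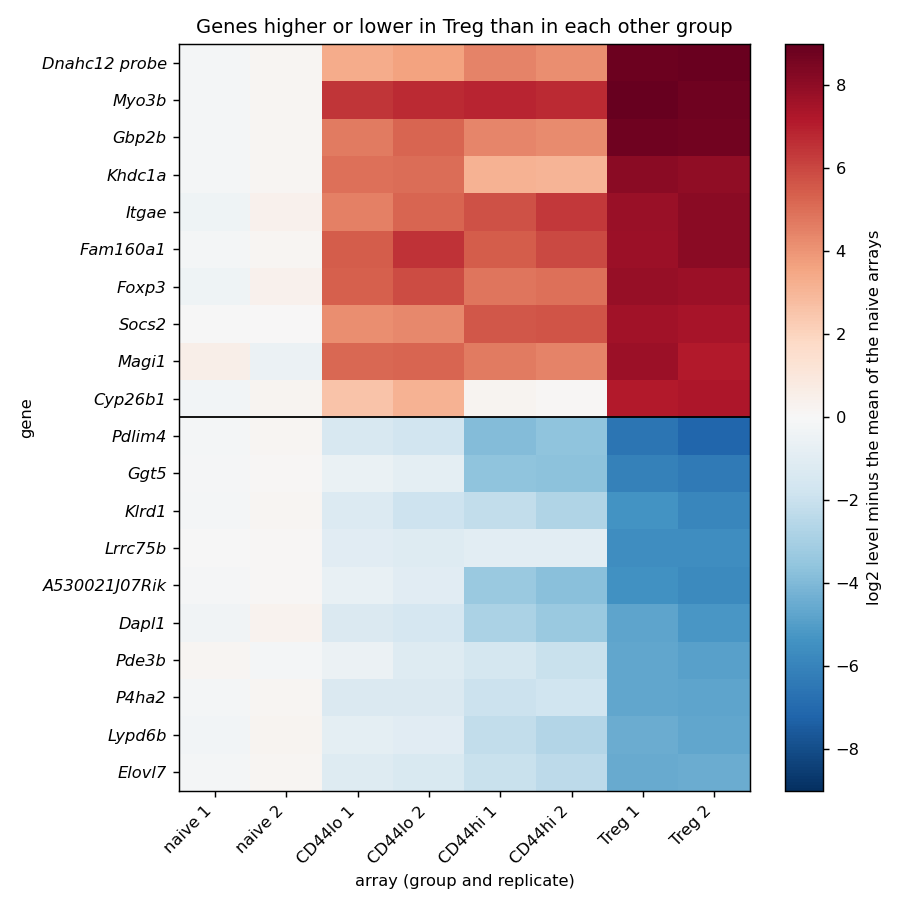
Level of the 10 largest rises (above the line) and the 10 largest falls (below it) among genes that passed the test in Treg against each of the other groups, on each of the 8 arrays (columns), as the log2 level minus the mean of the naive arrays. Columns of CD44lo and CD44hi lie between naive and Treg for most rows; for Cyp26b1 the CD44hi arrays lie at the naive level.

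Markers of other cell types differed between the groups in both directions, and their part in the results was not tested. Of 11 tested B cell markers 6 were higher in Treg, 54.5% called against 21.9% of all genes. Cd22 was at least 28.8-fold higher, Cd79b rose 21.1-fold, Jchain rose 30.4-fold with Treg arrays at 2.72 and 1.35, and Ms4a1 was at least 3.69-fold higher. Bank1 rose 2.86-fold and Ighm 2.75-fold. Of the defining B cell genes, Pax5 was not well above background on any of the 4 arrays. The summed linear level of the B cell list, relative to the 75th percentile, was 35.6 and 47.6 on the naive arrays, 124 and 117 on the Treg arrays and 57.7 to 79.9 on the other 4. Cd22 was lower in Treg than in CD44hi cells, by 2.41 on the log2 scale (adjusted p = 0.0226). Without naive array 1 there were also 3 B cell markers called lower.

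Class II and myeloid markers were mostly lower in Treg where they passed. H2-Aa fell 4.34-fold, H2-Ab1 3.96-fold and H2-Eb1 3.74-fold, the 3 called of 9 (33.3%, against 21.9% of all genes). The invariant chain Cd74 lay at -0.12 and 0.71 in naive cells and at 1.25 and 1.40 in Treg (adjusted p = 0.0648). The summed level of these 9 genes was 6.17 and 10.9 on the naive arrays and 10.1 and 10.1 on the Treg arrays. Of 16 tested myeloid and dendritic cell markers 7 were called, 43.8% against 21.9% of all genes. The 5 that fell were Fcgr3 (8.33-fold), Itgax (CD11c, 8.17-fold), Pirb (4.47-fold), Tyrobp (2.95-fold) and Csf1r (2.04-fold), the last with another probe that moved the other way. The number that fell was 2 without naive array 2 and 3 without Treg array 1 or any one CD44lo or CD44hi array. Of the 3 class II calls 1 was left without Treg array 2. Lyz2 rose 3.73-fold, and Cybb, an oxidase subunit also found in lymphocytes, was at least 51.5-fold higher. Their summed level was 6.87 and 11 on the naive arrays and 10.1 and 8.96 on the Treg arrays.

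Of 14 tested CD8 T cell and NK cell markers, 9 rose and 4 fell, 92.9% called against 21.9% of all genes. The median was 1.54, or 0.38 with genes at background set to their bounds. Beside Klrd1 and Eomes the falls were Prf1 (perforin, 3.85-fold) and Cd8b1 (1.98-fold, adjusted p = 0.0209), and the rises included Nkg7 at 17.5-fold. The 4 falls became 2 without Treg array 1 and 1 without Treg array 2, and the 9 rises became 5 without Treg array 2. Cd8a lay at -5.77 and -4.37 in naive cells and at -5.17 and -4.87 in Treg (adjusted p = 0.972). The summed level of this list was 18.3 and 23.2 on the naive arrays and 12.9 and 12.9 on the Treg arrays. Erythroid and platelet markers gave 1 call of 7, 14.3% against 21.9% of all genes (Epor, 1.65-fold higher, lost in 15 of 18 alternatives). Their summed levels were 0.538 and 0.309 in naive cells and 0.575 and 0.313 in Treg. Of 5 stromal and endothelial markers 3 were called, 60% against 21.9% of all genes. Col1a1 was at least 3.39-fold and Col1a2 2.63-fold higher (the latter lost in 12 of 18 alternatives), and Cdh5 was at least 2.43-fold lower. The summed level of the 5 was 2.53 and 1.46 on the naive arrays and 1.62 and 1.64 on the Treg arrays.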

How the data were processed

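RNA of 8 sorted samples was amplified, labelled with Cy3 and hybridised to 1-colour Agilent arrays of 45018 spots, per the labels. The deposited files hold the processed signal as an intensity, with detection flags per spot (1 or 0, an other kind of value), written by version 9.5.1.1 of Agilent's Feature Extraction software, per the file headers. The authors also deposited a table of log2 values, whose processing is not given in the sources used here beyond limma in the submitters' processing notes. Its medians lay between 6.86 and 6.88 and its values ranked the spots nearly as the raw signal did; it served as an alternative.

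On every array the signals were divided by the 75th percentile of the probes that are not controls and taken to log2. The 41174 probes were named through RefSeq (32719 matched) or kept the file's name (8455), the brightest probe on average stood for a gene, and 17996 of 27670 names were well above background on both arrays of a group. limma 3.58.1 fitted all 8 arrays with 4 residual and 2.62 prior degrees of freedom, with Benjamini-Hochberg adjustment over all genes; every adjusted p is from it. With 2 arrays a group, the smallest p of an exact permutation test is 0.333. The fit was tested on simulated data.

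The named genes were the 15 largest rises and falls, the 5 largest of each among bright probes, the 10 largest of each that passed against all 3 groups, and members of gene lists by role. The members and lists were chosen with earlier results of these data known. The slides each held 1 array of every group. Some genes are not reported here. The numbers were not taken as pairs in the main fit, and a fit with the replicate as a block is given below. Deviations of same-numbered arrays correlated at 0.056 between naive and Treg and at 0.154 to 0.332 in the other 5 pairs of groups.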

Additional observations from a re-analysis of the deposited data

How the results depend on the processing

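Of 183 genes named, 170 passed the test, and 128 of them passed in every one of 18 alternatives that tested them. Without the filter on dim probes 2301 genes passed, 765 of them lower, and with only the 4 Treg and naive arrays 2517, 780 of them lower. With normexp 3250 genes were lower. Leaving out one array in turn gave 1788 to 9200 genes, 1332 to 3111 higher and 456 to 6089 lower, the extremes without Treg array 2 and without naive array 1. The lower genes numbered 1018 without CD44lo array 1 or 2 and 795 without Treg array 1. With the slide as a block 3364 genes passed. What same-numbered arrays share is not stated in the labels, and with the replicate block 4205 genes passed, 3748 of them shared with the 3941. Sizes of dim genes depend on the background: Foxp3 ranged from 5.78 to 8.14 and Klrg1 from 6.18 to 10.87, and Pdlim4 from -7.13 to -5.73. The median over all regulatory T cell genes was 3.85 with normexp. Among named genes the sign turned for Il2 (-0.23) and Il17a (-0.08) with normexp, and for Il2rg (-0.18 without naive array 2, 0.86 without naive array 1) and Cd4 (0.54 without naive array 1, -1.02 without naive array 2). Cd8a turned to -0.40 with normexp, -0.14 with quantile normalization, -0.06 in the authors' table, -0.08 with the mean of its probes, -0.65 without naive array 1 and -0.10 without Treg array 2, and lay at 0.75 without naive array 2. The cause was not tested. With 2 arrays a group the number of arrays limits the precision.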
